A study of Mus musculus with 15 samples.

Results

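The regions described here carried a H3K4me1 peak in mouse embryonic stem cells (ESCs) and none in either of 2 kinds of expanded potential stem cells (EPSCs), and overlapped no H3K27ac peak in any of the 3 states. They were selected on measured values, the peak calls themselves. Overlapping or touching H3K4me1 peaks of the 3 states were joined into 124744 union regions, and a region was kept when it held an ESC peak only and no H3K27ac peak of any state overlapped it by 1 bp. A total of 14729 regions met the rule. They were 15.1% of the 97714 regions with an ESC peak and 81.2% (95% Wilson interval 80.7 to 81.8) of the 18129 regions with a peak in ESCs alone. Of the other ESC-only regions, 3151 (17.4% of the 18129) overlapped H3K27ac of ESCs alone, 22 of D-EPSCs alone and 10 of L-EPSCs alone.

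All cells were of mouse strain 129SV, and the EPSCs had been converted from ESCs. The J1 ESCs grew in serum with leukemia inhibitory factor (LIF), CHIR99021, a GSK3 inhibitor that activates Wnt signalling, and PD0325901, a MEK inhibitor. D-EPSCs grew in N2B27 with serum replacement, LIF, CHIR99021, dimethindene maleate and minocycline hydrochloride. L-EPSCs grew in DMEM/F12 with serum replacement, LIF, CHIR99021, PD0325901, A-419259, XAV939 (a tankyrase inhibitor that dampens Wnt signalling), JNK inhibitor VIII and SB203580. LIF and CHIR99021 were thus common to all 3 media. Each mark was profiled by ChIP-seq in 2 samples per state, with 1 input per state, 15 samples in all, and ESCs served as the reference state. The analysed values were 6 lists of peak positions, 1 per state and mark, so samples of a group could not be compared. Intervals and ranges over chromosomes below describe counting error and variation along the genome only, never the spread between samples. Medium, serum and cell state cannot be told apart in this design.

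The labelled cell type was checked against H3K27ac at start sites. All 8 pluripotency genes examined, such as Nanog, Pou5f1 and Zfp42, carried H3K27ac within 1 kb of the start site in ESCs and D-EPSCs, and 7 of 8 did in L-EPSCs, the exception being Lin28a. None of 12 fibroblast genes, such as Col1a1 and Thy1, did in any state. For H3K4me1, 7, 8 and 8 of the fibroblast genes had a peak there in ESCs and the 2 EPSCs, and 4, 8 and 8 of the pluripotency genes. Per the study's methods the EPSCs were kept without feeders before ChIP-seq, while for ESCs they name either feeders or gelatin. The H3K27ac lists differed in length, which was 64342 peaks for ESCs but 32782 for D-EPSCs and 26966 for L-EPSCs. The H3K4me1 lists held 102751 to 107222 peaks but were less alike in extent. The ESC list spanned 221.1 Mb, the D-EPSC list 187.5 Mb and the L-EPSC list 173.1 Mb. Median H3K4me1 peak widths were 1189, 1134 and 1065 bp in the same order. The effect of this wider ESC coverage on the number of ESC-only regions was not tested. Read depth is unknown from peak positions, and a missing peak does not show that a mark was absent.

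H3K4me1 is laid down by the MLL3 and MLL4 methyltransferases at enhancers and on the flanks of promoters. H3K27ac is added by p300 and CBP and marks enhancers and promoters that are in use, so that distal regions with H3K4me1 and without H3K27ac are often called primed or poised enhancers. In naive ESCs many enhancers are bound by pluripotency factors with the effectors of LIF and Wnt signalling, STAT3 and the TCF and LEF proteins. Primed regions may gain acetylation in a later state or be decommissioned by demethylases.

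The sequences of 4 regions are shown as examples of the regions and motifs described below. They are the central 300 bases of the widest region far from any EPSC H3K4me1 peak and any H3K27ac peak (in Qk), of a named region picked because it holds an ESRRB and NR5A2 match (in Tmem132c), and of the widest regions at Nr5a2 and Tcf7l2, genes of naive pluripotency and Wnt signalling. Capitals mark matches, on either strand, to 12 motifs that are named with their letters further on. All are on the plus strand of mm9 (NCBIM37) and were read from the genome sequence, and no window met a coding or untranslated exon.
Qk, chr17:10444393-10444692: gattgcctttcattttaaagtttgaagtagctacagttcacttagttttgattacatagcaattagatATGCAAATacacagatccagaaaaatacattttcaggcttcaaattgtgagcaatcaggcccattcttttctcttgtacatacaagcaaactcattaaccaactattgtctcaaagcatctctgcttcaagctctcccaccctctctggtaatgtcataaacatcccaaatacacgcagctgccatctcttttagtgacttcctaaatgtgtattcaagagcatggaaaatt
Tmem132c, chr5:127803497-127803796: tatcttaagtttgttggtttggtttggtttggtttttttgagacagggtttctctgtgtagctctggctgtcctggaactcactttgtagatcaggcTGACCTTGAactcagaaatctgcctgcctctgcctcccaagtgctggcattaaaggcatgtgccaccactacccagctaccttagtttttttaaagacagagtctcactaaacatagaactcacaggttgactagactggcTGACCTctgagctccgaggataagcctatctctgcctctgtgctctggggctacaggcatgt
Nr5a2, chr1:138756710-138757009: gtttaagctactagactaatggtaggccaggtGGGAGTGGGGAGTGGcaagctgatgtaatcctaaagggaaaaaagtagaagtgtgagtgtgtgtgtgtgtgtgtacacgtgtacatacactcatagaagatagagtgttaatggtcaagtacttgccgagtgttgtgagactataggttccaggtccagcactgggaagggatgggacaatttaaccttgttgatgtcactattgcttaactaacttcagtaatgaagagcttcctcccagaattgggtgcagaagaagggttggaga
Tcf7l2, chr19:55855234-55855533: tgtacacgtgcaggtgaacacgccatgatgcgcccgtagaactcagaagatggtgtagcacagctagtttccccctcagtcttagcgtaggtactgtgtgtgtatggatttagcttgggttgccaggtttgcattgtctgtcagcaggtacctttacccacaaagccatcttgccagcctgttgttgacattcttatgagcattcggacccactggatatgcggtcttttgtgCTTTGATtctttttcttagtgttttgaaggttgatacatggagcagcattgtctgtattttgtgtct
In these windows the Qk sequence held 1 match, the POU octamer at base 69. The Tmem132c window held the ESRRB and NR5A2 letters at base 98, which contain the nuclear receptor core letters AGGTCA, and a further copy of that core at base 239. The Nr5a2 window held KLF matches at bases 33 and 40, and the Tcf7l2 window held the TCF and LEF letters at base 234. GC content was 36.7% in the Qk window, 44.7% in the Nr5a2 window and 46.3% in the Tcf7l2 window.

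The first question was what kind of regions these were. They were narrow. The median width was 560 bp (95% order-statistic interval 554 to 566), and all 14729 together covered 10.0 Mb. A total of 6218 (42.2%) were under 500 bp, 6103 (41.4%) lay between 500 and 1000 bp, 2160 (14.7%) between 1000 and 2000 bp, and 248 (1.68%) were at least 2000 bp wide. The narrowest ESC H3K4me1 peak was 268 bp, and the widest of these regions was 7735 bp. The other classes of H3K4me1 regions were wider, with medians of 815 bp for the 3400 ESC-only regions that overlapped H3K27ac, 855 bp for the 7770 regions of both EPSCs without an ESC peak and without H3K27ac, and 1589 bp for the 28926 regions of all 3 states without H3K27ac. These widths are partly fixed by the rules of the classes. A narrow region escapes overlap with other peaks more easily, the acetylated class is selected by an overlap, and the last 2 classes are unions of 2 and 3 lists, which can only widen a region. With the widest 50% of each peak list, 7984 regions of 1563 bp median width met the rule, and the medians of the other classes were 1814, 1811 and 2817 bp.

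**Figure D1:**
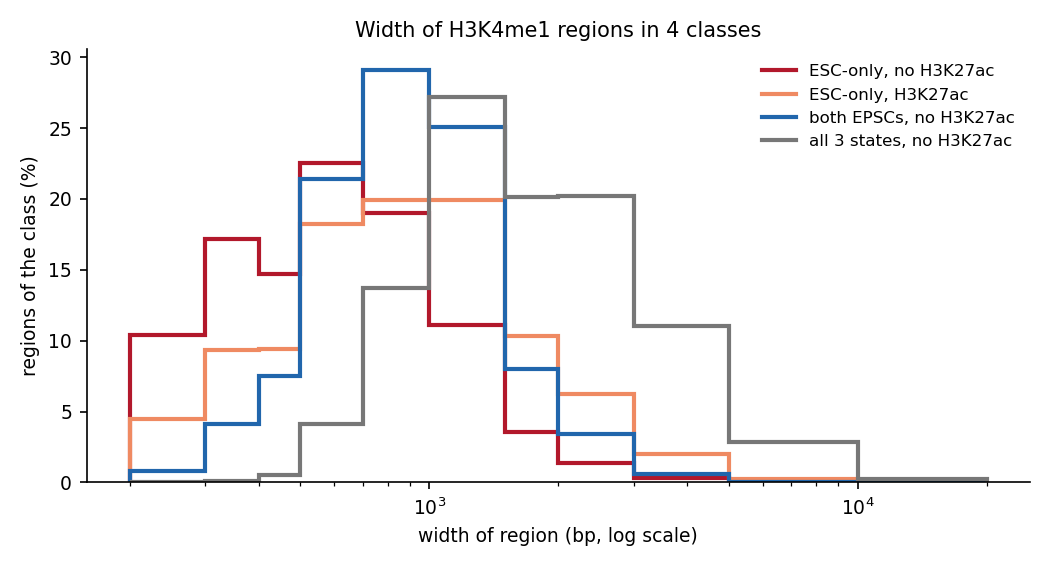
Share of regions (y axis, % of the class) in each width bin (x axis, bp, log scale) for 4 classes of H3K4me1 regions. The ESC-only regions without H3K27ac have their median at 560 bp, left of the medians of 815, 855 and 1589 bp of the other classes.

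The regions lay away from promoters. Only 177 of them (1.20%, Wilson interval 1.04 to 1.39) came within 1 kb of the start site of a protein-coding gene, with 0.404% to 2.11% on single chromosomes. ESC-only regions with H3K27ac were alike in this, at 0.971% (0.692 to 1.36), an interval that overlaps. Of the regions of both EPSCs without H3K27ac, 15.9% (15.1 to 16.8) were near a start site, and of those of all 3 states 23.9% (23.4 to 24.4). The share was lower for the ESC-only regions without H3K27ac than for either of these classes on 20 of 20 chromosomes, and lower than for the acetylated ESC-only regions on 6 of 20. Width did not remove the difference. Among regions of 500 to 1000 bp the shares were 1.13%, 0.928%, 12.0% and 16.5% in the same order of classes. With the widest 50% of each list they were 4.55%, 6.87%, 40.3% and 29.7%, so the order of the ESC-only classes turned, and when an EPSC overlap had to cover 50% of an ESC peak the first share was 4.26%. Seen from the genes, 176 of 22350 start sites (0.787%) had such a region within 1 kb and 68 lay inside one. Of the genes in the lists described below, only Plcl2, in the ESC signature, was among those 176.

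Introns held most of the regions. A total of 7484 (50.8%) lay in an intron without touching an exon, 2040 (13.9%) overlapped an exon of a protein-coding transcript, 1678 of these in coding sequence, and 5205 (35.3%) were outside genes. The intron share was similar in the acetylated ESC-only regions (48.4%) and lower in the regions of both EPSCs (25.9%) and of all 3 states (27.8%). The median distance to the nearest start site was 24440 bp (23902 to 25021), against 24706 bp, 35877 bp and 17381 bp. Median GC content was 46.6% (46.5 to 46.7), close to the 46.4% of the acetylated ESC-only regions and under the 48.7% of the regions of both EPSCs and the 47.9% of those of all 3 states. The regions were lower in median GC than each of these last classes on 20 of 20 chromosomes. CpG dinucleotides were scarce, with a median observed over expected ratio of 0.210 (0.208 to 0.212), against 0.199, 0.292 and 0.278.

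**Figure D2:**
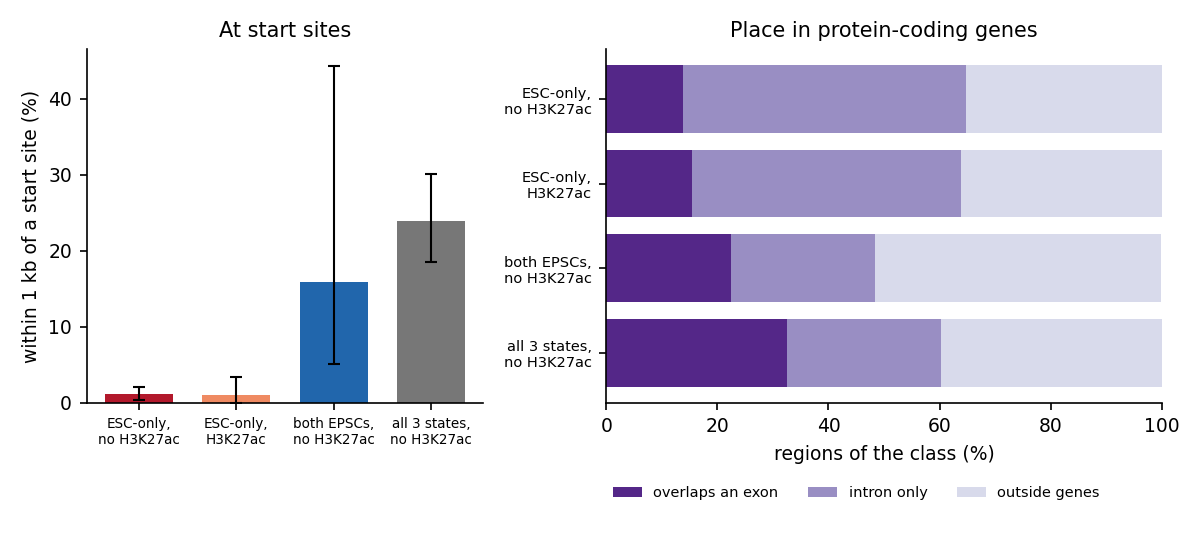
Left, share of regions within 1 kb of a protein-coding start site (y axis, %) in 4 classes of H3K4me1 regions, where bars are the share over all chromosomes and whiskers the lowest and highest chromosome. Right, share of each class (x axis, %) that overlapped an exon, lay in introns only or lay outside genes. The ESC-only classes are at 1.20% and 0.971% at start sites and at 50.8% and 48.4% in introns only.

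The share of ESC H3K4me1 regions that met the rule varied little between autosomes, from 13.1% on chromosome 8 to 17.2% on chromosome 5. It was 20.5% on chromosome X, which held 284 of the regions. This higher value depended on the denominator, as only 1385 of the 2417 union regions on chromosome X had an ESC peak. Taken as a share of union regions, chromosome X was at 11.8%, between autosomes such as chromosome 10 (10.3%) and chromosome 9 (13.3%). 

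Distances to marks that EPSCs did carry were measured next. They were not measured for other classes or genome windows, so they do not set these regions apart. The nearest EPSC H3K4me1 peak lay at a median of 2829 bp (2765 to 2885), at 3298 bp for D-EPSCs and 3679 bp for L-EPSCs. It was within 1 kb for 2320 regions (15.8%) and within 10 kb for 12729 (86.4%). The share within 1 kb was 7.30% with the widest 50% of each list and 41.9% when only overlaps of 50% of the ESC peak counted as shared. An EPSC H3K4me1 peak stood within 10 kb on both sides of 7398 regions (50.2%), on 1 side of 5331 (36.2%) and on neither side of 2000 (13.6%). Another ESC H3K4me1 region was nearer still, at a median of 2070 bp, and a region of all 3 states was at 3816 bp.

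H3K27ac was farther away, in lists that were shorter than those of H3K4me1. The nearest H3K27ac peak of ESCs lay at a median of 6670 bp (6484 to 6848), that of D-EPSCs at 16764 bp and that of L-EPSCs at 23749 bp, an order that follows the length of the 3 lists. An ESC H3K27ac peak was within 10 kb of 8996 regions (61.1%), a D-EPSC peak of 5030 (34.2%) and an L-EPSC peak of 3746 (25.4%). Close to the limit of the rule, 235 regions had an EPSC H3K4me1 peak at most 100 bp away, the nearest at 1 bp, and 98 had an H3K27ac peak that near. Just outside it, 474 ESC peaks were lost to an EPSC overlap of at most 100 bp, and 158 further ones to an H3K27ac overlap of at most 100 bp. The peaks lost to these small overlaps had median widths of 439 and 469 bp, and the regions next to the limit 458 and 540 bp.

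**Figure D3:**
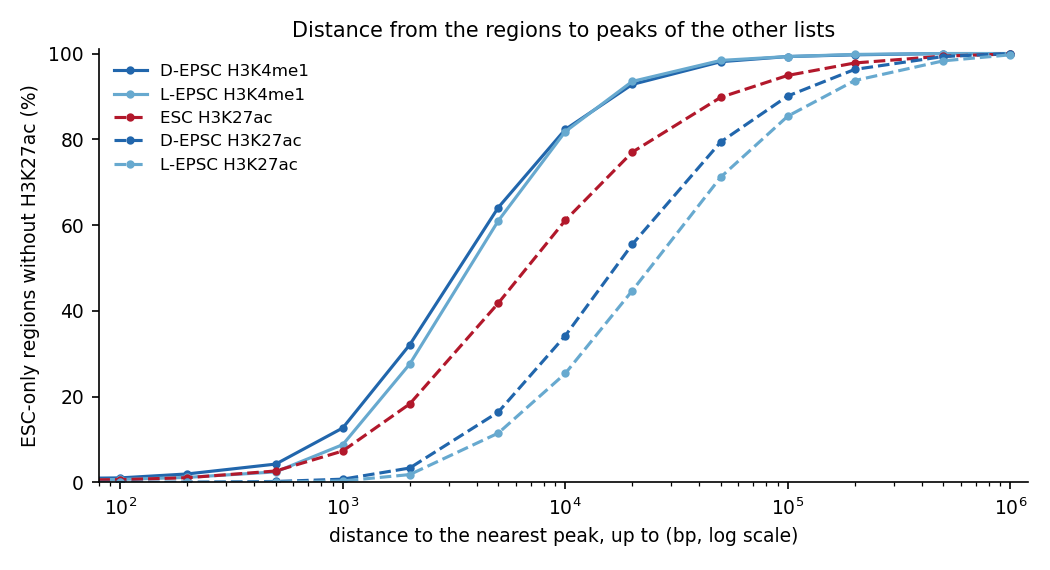
Share of the ESC-only regions without H3K27ac (y axis, %) whose nearest peak of another list lies within a given distance (x axis, bp, log scale). Solid lines are H3K4me1 of the EPSCs and dashed lines H3K27ac of the 3 states. Within 10 kb the shares are 82.3% and 81.8% for H3K4me1, and 61.1%, 34.2% and 25.4% for H3K27ac.

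A smaller set stood apart from the EPSC and H3K27ac peaks. A total of 1743 regions (11.8%) had neither an EPSC H3K4me1 peak nor an H3K27ac peak within 10 kb. They were narrower than the rest, with a median of 507 bp against 566 bp, and their nearest other ESC H3K4me1 region was at 14926 bp against 1757 bp. The difference in distance is partly fixed by the filter, because only 18129 of the 97714 ESC regions lacked an EPSC peak. The 10 widest of the 1743 regions were taken as named regions, leaving out 1 chromosome from which no sequence is printed. The choice rests on the distance, since 3 of the 10 remained with 5 kb and 2 with 20 kb.

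The widest was the 7735 bp region at chr17:10440676-10448410 in an intron of Qk, which encodes Quaking, an RNA-binding protein that controls splicing. It lay 63835 bp from the Qk start site, 13151 bp from the nearest D-EPSC and 13630 bp from the nearest L-EPSC H3K4me1 peak, and 17959 bp from H3K27ac. It was also the widest of all 14729 regions. The next was a 3520 bp region in an intron of Tmem132d, a transmembrane protein gene, 138956 bp from its start site and 23967 bp from H3K27ac. The third, of 3210 bp, lay outside genes, 61738 bp from the start site of Slc19a3, a thiamine transporter gene, at 23859 bp from EPSC H3K4me1 and 23756 bp from H3K27ac. Its nearest other ESC H3K4me1 region was at 23801 bp, against 1505 bp for the Qk region and 1035 bp for the Tmem132d region.

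Others of the 10 were in Agtpbp1 (2553 bp, an intron of this tubulin carboxypeptidase gene), Gnptab (2540 bp), Ncor1 (2452 bp), Tmem132c (2419 bp, an intron), Zfp626 (2338 bp) and Ryk (2320 bp). The regions in Gnptab, which serves the sorting of lysosomal enzymes, Ncor1, a nuclear receptor corepressor, Zfp626, a zinc finger gene, and Ryk, a Wnt co-receptor, each overlapped a coding exon. These 6 were between 10967 and 132270 bp from the start site of their gene. Their nearest other ESC H3K4me1 regions were at 1461 to 5468 bp, except for 11174 bp at Tmem132c.

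**Figure D4:**
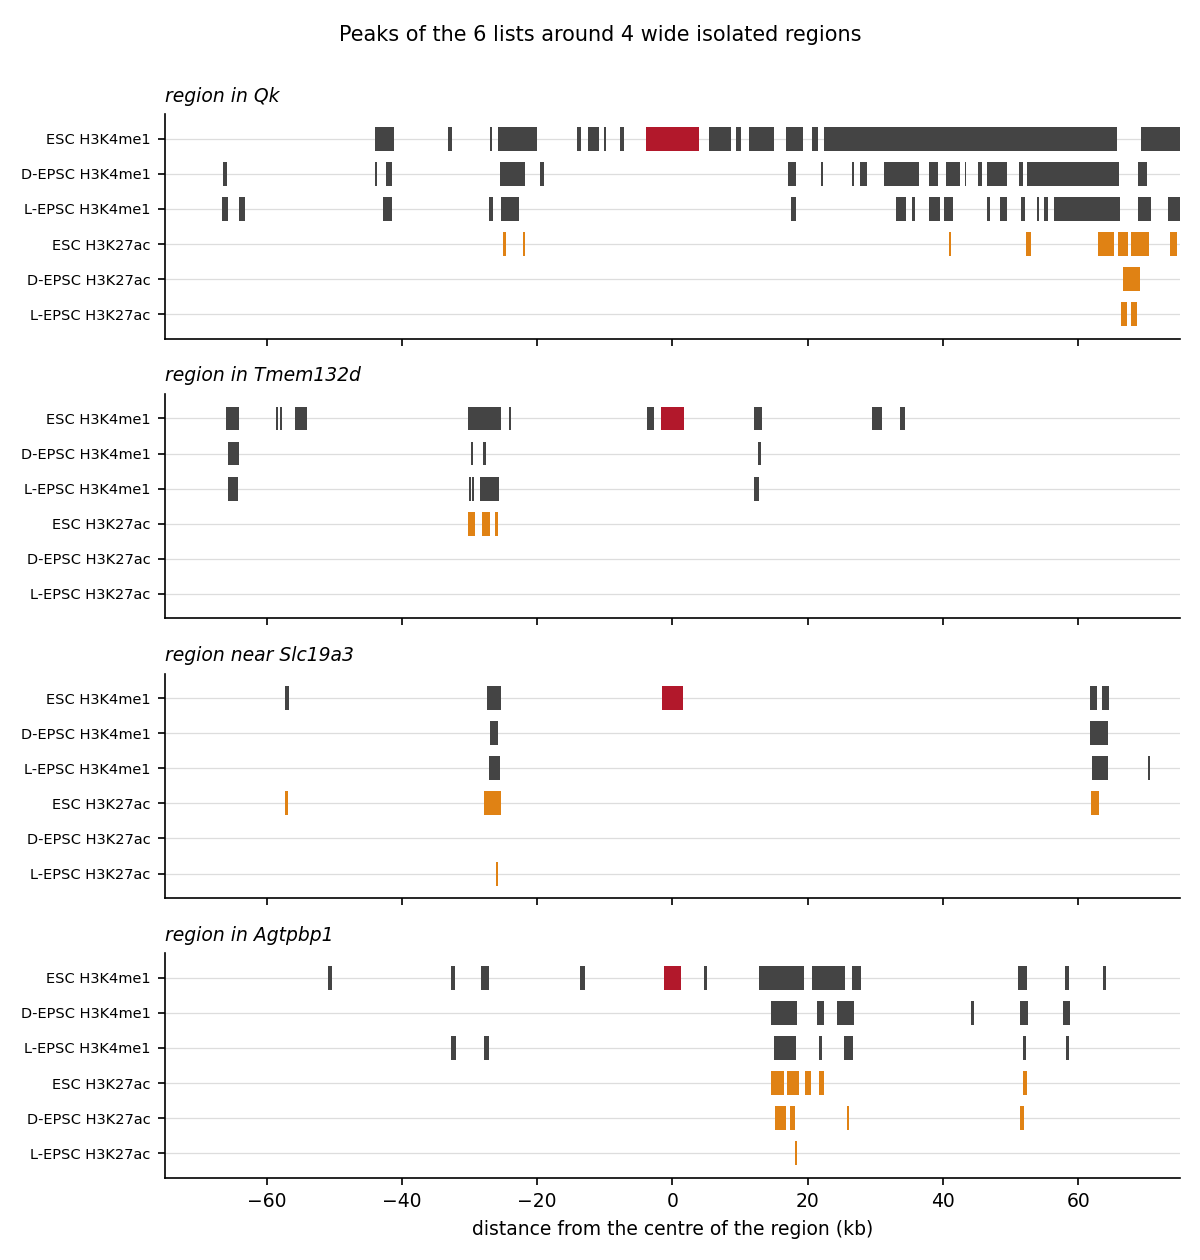
Peaks of the 6 lists (rows) within 75 kb of the centre of 4 wide isolated regions (x axis, kb from the centre), with the region itself in red, other H3K4me1 peaks in grey and H3K27ac peaks in orange. The Qk region sits in a row of ESC-only peaks, but its whole window holds 16 H3K4me1 peaks of ESCs, 18 of D-EPSCs and 19 of L-EPSCs. In the same order of states there are 11, 4 and 5 around Tmem132d, 5, 2 and 3 around Slc19a3, and 12, 6 and 7 around Agtpbp1.

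Most regions came singly. When neighbours were joined over gaps of at most 10 kb with no EPSC H3K4me1 and no H3K27ac between them, 10842 (73.6%) stood alone, 2762 (18.8%) were in pairs and 1125 (7.64%) in 340 runs of 3 or more. The longest run was the one in Qk. It spanned 29069 bp at chr17:10430465-10459533 and held 8 regions that covered 18610 bp of it. Their widths were 495, 1677, 273, 693, 7735, 3294, 712 and 3731 bp from the lower to the upper coordinate, so 3 of the 8 were over 3 kb wide. At the Qk locus 2 more lay outside the run, 629 and 997 bp wide. All 10 were in introns.

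Cobl, the gene of the actin nucleator Cordon-bleu, held the run with the most regions, 10 in 23405 bp at chr11:12296397-12319801, covering 8639 bp. The Cobl locus had 14 of them in all among its 24 ESC H3K4me1 regions, from 268 to 2065 bp wide, all in the gene body. The other long runs held 5 regions each, in Pla2g4e (26630 bp), a phospholipase gene, Phf3 (23063 bp), which encodes a PHD finger protein, and Ryk (22455 bp).

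Among all 14729 regions, the widest after Qk were 6437 bp near Hoxc11, a posterior homeobox gene, 5206 bp in Uhrf1, which guides the maintenance of DNA methylation, and 5006 bp in Zfand3. These had EPSC H3K4me1 nearby, at 1277, 2400 and 365 bp, and were picked here after their values were seen. 

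Next, the regions were assigned to genes. A locus was a protein-coding gene with 10 kb on either side. Of 22350 loci, 7452 (33.3%) held at least 1 of the regions, and 4167 (18.6%) held a region of both EPSCs without H3K27ac. With no flank the first share was 22.6%, and with 50 kb on either side 57.7%. Per 100 kb of locus there were 0.909 ESC-only regions without H3K27ac, and these made up 15.5% of the ESC H3K4me1 regions at loci. Counts followed length. The median locus measured 42.6 kb with 1, 62.6 kb with 2 or 3, 138 kb with 4 to 9 and 349 kb in the 48 genes with 10 or more.

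The loci with the most regions were therefore long. Gm20388 led with 56 and Fgfr2 came next with 36, but the annotation gives these models spans of 4455 and 3029 kb with flanks, far beyond the usual extent of an FGF receptor gene, so that their counts take in neighbouring genes. Next were Dlg1, a polarity scaffold (18 regions in 229.9 kb), Nedd4l, a ubiquitin ligase (18 in 350.1 kb), and Cadm1, an adhesion molecule (17 in 347.5 kb). Ptprg, a receptor phosphatase, and Slc39a11, a zinc transporter, had 16 each, Pdzd2 and Rere, a transcriptional corepressor, 15 each, and Apbb2 14. At Dlg1 they were 18 of 32 ESC H3K4me1 regions.

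By density, small loci led. Bhlha9, a bHLH gene of limb development, had 4 regions in 21.21 kb, or 18.9 per 100 kb, and others of the 10 densest were Wbp5 (18.1), Lat2 (14.4), Zfp687 (13.9), Ydjc (13.9), Kif7, a kinesin of the Hedgehog pathway (13.9), Grsf1 (13.6), Utp14b (13.5) and Cd3g (13.0). Grsf1, which encodes an RNA-binding protein of mitochondria, had 5 regions of 551 to 1450 bp. Of these, 1 lay in the gene body and 4 lay downstream of it, and each was at least 7020 bp from EPSC H3K4me1. The 4 regions at Bhlha9 were 287 to 628 bp wide, and 1 of them came within 43 bp of an EPSC peak.

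Gene lists of pluripotency, signalling and early lineages were then examined, by counts only. At the core factors Pou5f1, Sox2 and Nanog none of the 6 ESC H3K4me1 regions was of this kind. Among 14 naive genes, 4 (28.6%) had one, at 1.28 per 100 kb, and among 15 formative and primed genes 2 (13.3%) had one, at 0.286 per 100 kb, against 33.3% and 0.909 over all loci. The regions made up 12.3% of the ESC H3K4me1 regions at the naive loci and 3.64% at the formative and primed loci.

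Nr5a2, an orphan nuclear receptor of the naive network, carried 6 of the 9 regions at naive loci, among its 19 ESC H3K4me1 regions. All 6 were in introns, 54.8 to 100 kb downstream of the start site, with widths of 1059, 290, 534, 616, 575 and 273 bp. The widest, whose central sequence is shown above, was 143 bp from an H3K27ac peak and 807 bp from an EPSC H3K4me1 peak, and the other 5 were 1299 to 6015 bp from H3K27ac. Tfcp2l1, Tbx3 and Tcl1 had 1 each. Esrrb, another nuclear receptor of this network, had none among 12 ESC regions, and Klf2, Klf4 and Klf5 none among 3, 3 and 4.

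Of 9 genes of the LIF pathway, 4 (44.4%) held a region, at 1.68 per 100 kb, against 33.3% and 0.909 over all loci. The regions were 13.3% of the ESC H3K4me1 regions there, below the 15.5% over all loci, so the measures differ in direction. The co-receptor Il6st had 2, both 659 bp wide, 1 in an intron and 1 downstream. Jak1, the kinase bound to it, had 3 of 384, 463 and 770 bp, and 1 of them was 14484 bp from EPSC H3K4me1 and 74700 bp from H3K27ac. Stat3, the transcription factor at the end of the pathway, had 2, of which 1 was 2479 bp wide over coding exons and 1 was 268 bp wide. The target Pim1 had 1, and the receptor gene Lifr and the feedback inhibitor Socs3 had none.

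Of the Wnt list, 11 of 15 genes (73.3%) held a region, at 1.68 per 100 kb, but its loci were also long, with a median of 93.5 kb. Restricted to loci of 50 to 200 kb, 8 of 12 Wnt genes (66.7%) held a region, against 52.3% of all loci of that length, and the density was 1.18 per 100 kb against 1.23. Tcf7l2, a DNA-binding effector of the pathway, had 9 of its 36 ESC regions in this class. All 9 were in introns, up to 159 kb from the start site, 534 to 2565 bp wide and 9901 bp in sum. Wnt5b, a ligand, had 5 (268 to 2492 bp), Apc, the scaffold that promotes destruction of beta-catenin, 3, and Tcf7l1, the repressor that CHIR99021 relieves in ESCs, 2. Axin2, Lef1, Ctnnb1 (beta-catenin), Sp5, Cdx1 and the tankyrases Tnks and Tnks2, the targets of XAV939, had 1 each.

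In the FGF and ERK list, 4 of 15 genes (26.7%) held a region, at 1.12 per 100 kb, against 33.3% and 0.909 over all loci. Without Fgfr2 and its overlong model, an alternative chosen after seeing the data, these were 3 of 14 genes (21.4%) at 0.793 per 100 kb. The regions were 18.4% of the ESC H3K4me1 regions at the listed loci with Fgfr2 and 8.93% without it, against 15.5% over all loci. Dusp6, the phosphatase that ERK signalling induces to limit itself, had 3 of its 4 ESC regions in this class. Relative to the start site they lay at -6.17 kb (361 bp wide), -4.50 kb (728 bp) and 9.82 kb (427 bp), and their nearest EPSC H3K4me1 peaks were 2696, 848 and 1022 bp away. Fgfr1 and the phosphatase gene Dusp4 had 1 each.

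In the lineage lists, 3 of 11 trophoblast genes held a region, with 3 at the keratin gene Krt8 and 1 each at the transcription factor genes Elf5 and Ascl2. Of 9 primitive endoderm genes 5 held one, with 2 at the laminin gene Lama1 and 1 each at Gata6, Pdgfra, Foxa2 and Hnf4a. Of 13 retinoid genes 4 held one, with 3 at Rxra, the partner receptor of the RARs, and 1 each at Rarb, Cyp26a1, the retinoic acid hydroxylase, and Stra6. Of 19 regulators of later lineages 4 held one, with 2 downstream of the cardiac factor Tbx5. These were shares of 27.3%, 55.6%, 30.8% and 21.1%, against 33.3% over all loci, and densities of 1.17, 0.881, 0.546 and 0.648 per 100 kb, against 0.909. The regions were 10.2%, 16.2%, 8.82% and 6.41% of the ESC H3K4me1 regions at these loci, against 15.5%. Among loci of 50 to 200 kb, 1 of 3, 4 of 6, 2 of 6 and 3 of 5 genes held a region in the same order of lists, against 52.3% of all loci of that length. Of 9 genes of DNA methylation 5 (55.6%) held one, at 0.867 per 100 kb and 9.38% of the ESC regions. Among loci of 50 to 200 kb it was 50.0% of these genes, against 52.3% of all loci of that length. Uhrf1 had 2 wide ones of 2309 and 5206 bp, both over coding exons, and Dnmt1, Tet1, Tet2 and Mettl4 had 1 each.

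**Figure D5:**
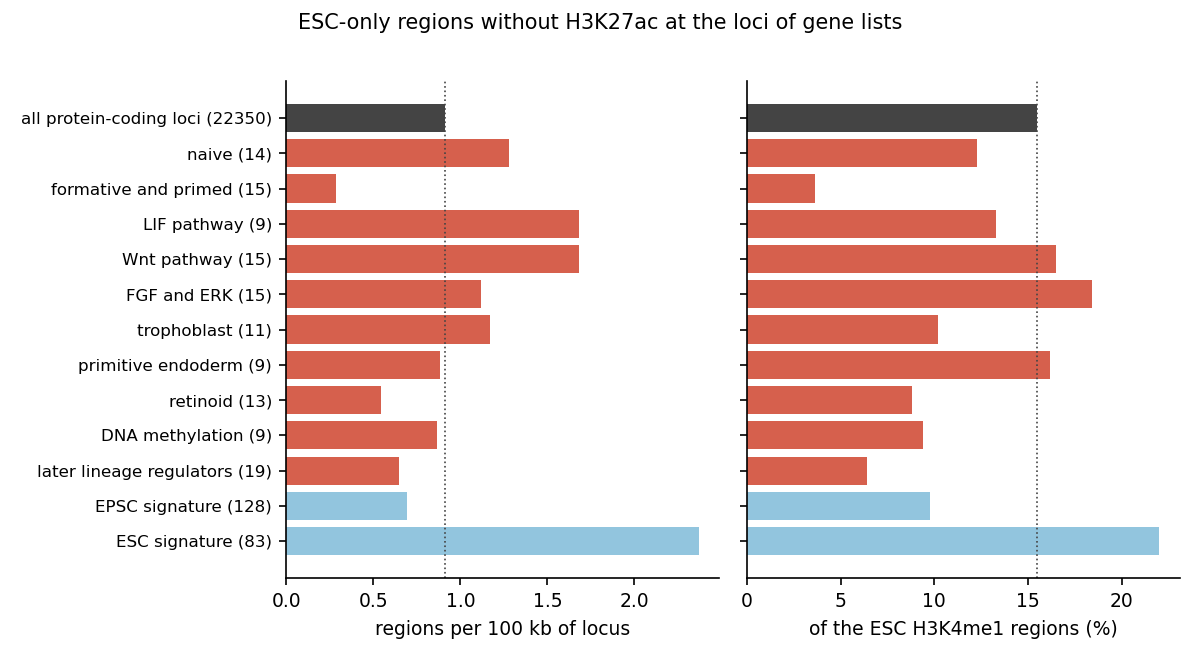
Left, ESC-only regions without H3K27ac per 100 kb of locus (x axis), and right, their share among ESC H3K4me1 regions at those loci (x axis, %), for all protein-coding loci and for gene lists, with the number of genes in parentheses. The dotted lines mark 0.909 per 100 kb and 15.5% over all loci. The ESC signature list reaches 2.37 and 22.0%, and the formative and primed list 0.286 and 3.64%.

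The study's 2 signature lists were chosen by the authors partly on these same ChIP-seq samples, with expression and accessibility, so they are not independent evidence of direction. Of 83 matched genes of the ESC signature, 61 (73.5%) held a region, at 2.37 per 100 kb, and the regions were 22.0% of the ESC H3K4me1 regions there. Of 128 matched genes of the EPSC signature, 51 (39.8%) held one, at 0.692 per 100 kb and 9.75%. Over all loci the values were 33.3%, 0.909 per 100 kb and 15.5%. For regions of both EPSCs without H3K27ac the shares were 15.7% of the ESC signature and 43.8% of the EPSC signature, against 18.6% of all loci. Among loci of 50 to 200 kb, 79.5% of ESC signature genes and 47.7% of EPSC signature genes held an ESC-only region without H3K27ac, against 52.3% of all loci of this length.

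The ESC signature loci with the most were Slc39a11 (16), Cobl (14), Etv6, an ETS repressor (11), Camk1d, a calmodulin-dependent kinase, Daam1, a formin that acts downstream of Wnt receptors, and Tns1, a focal adhesion protein (10 each). Pid1 had 9, the glypican Gpc4 and the RNA-binding protein Rbm47 had 8 each, and the developmental regulator Eya1 had 7. The EPSC signature was led by Fgfr2, already named, and Camta1 with 10 and Trerf1 with 7. Dusp6 belongs to this list too.

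Last, the central 300 bp of 13203 regions at least that wide were searched for the letters of 12 motifs, on both strands, beside the same window of the other classes and 851886 windows taken every 3000 bp along the genome. The TCF and LEF letters CTTTGAT were in 6.44% (Wilson interval 6.03 to 6.87) of the regions, against 5.36% of the acetylated ESC-only regions, 3.91% (3.50 to 4.36) of the regions of both EPSCs, 4.73% (4.49 to 4.98) of those of all 3 states and 6.15% of genome windows. As the classes differ in base composition, windows of 42% to 50% GC were also compared, a choice made after seeing the data. There the shares were 6.85%, 6.09%, 4.92%, 5.78% and 4.93%.

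The letters TCAAGGTCA, bound by ESRRB and NR5A2, were in 2.20% (1.96 to 2.46) of the regions and 2.40% of the acetylated ESC-only regions, against 1.13% in both EPSCs, 1.44% in all 3 states and 0.639% of the genome. They contain the nuclear receptor core letters AGGTCA, which were in 3168 of the 13203 windows and in 25.2%, 19.2%, 19.6% and 16.2% of the other sets in the same order. Part of these matches had a shared context. Of the 290 windows of the regions with a match, 82 (28.3%) had it only directly after the letters GAGT, as in Tmem132c, against 23.1% of the windows with a match in the acetylated ESC-only regions, 13.8% in both EPSCs, 16.8% in all 3 states and 16.2% in the genome. Repeat annotation was not used, and the part of repeated elements was not tested. Matches in any other context were in 1.58% (1.38 to 1.80) of the regions, 1.85% of the acetylated ESC-only regions, 0.973% in both EPSCs, 1.20% in all 3 states and 0.536% of the genome.

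Other motifs ran otherwise. The KLF letters GGGNGTGG were in 17.5% of the regions, 13.3% of the acetylated ESC-only regions, 15.9% in both EPSCs and 17.5% in all 3 states, against 6.88% of the genome. In windows of 42% to 50% GC they were in 1124 of 6250 windows of the regions, and in 13.7%, 13.4%, 15.1% and 9.08% of the other sets in the same order, so the share was above that of each other class. The G-rich letters GGGAGGGG of ZFP281 were in 6.70%, above the 4.86% of the acetylated ESC-only regions and 3.24% of the genome and below the 10.2% in both EPSCs and 9.41% in all 3 states, and the TFAP2 letters GCCNNNGGC were in 6.14%, against 6.74%, 4.01%, 12.8% and 10.2% in the same order. Within windows of 42% to 50% GC the gaps to the last pair of classes were smaller, at 5.25% against 6.46% and 6.83% for ZFP281, and 4.64% against 7.13% and 5.82% for TFAP2, while the acetylated ESC-only regions were at 4.21% and 5.65%. The POU octamer ATGCAAAT was in 2.70%, against 2.52%, 2.50% and 2.67% in the acetylated ESC-only regions, both EPSCs and all 3 states, and 2.61% of the genome. In windows of 42% to 50% GC it was in 2.80%, against 2.51%, 3.14%, 3.56% and 2.13% in the same order. The SOX letters AACAATGG were in 1.42%, against 1.32%, 1.60%, 1.36% and 1.64%. The TEAD letters ACATTCCA were in 1.58%, against 1.42%, 1.54%, 1.41% and 1.43%. The STAT letters TTCCNGGAA were in 1.02%. The AP-1 letters TGANTCA were in 8.42%, against 9.14%, 9.02% and 8.34% in the acetylated ESC-only regions, both EPSCs and all 3 states, and 8.83% of the genome. In windows of 42% to 50% GC they were in 8.64%, against 8.98%, 11.1%, 9.87% and 9.06% in the same order. The GATA letters AGATAAG were in 3.68% (3.37 to 4.02), against 3.51%, 2.95% (2.59 to 3.35) and 3.27%, and below the 4.44% of the genome. Within that GC range they were in 4.08%, against 3.08% in the acetylated ESC-only regions, 3.84% in all 3 states and 4.10% of the genome. In both EPSCs they were in 103 of 2863 windows of that range. For STAT, the factor that LIF activates, the 4 classes lay between 1.02% and 1.08%, and the genome was at 0.751%.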

How the data were processed

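ChIP-seq for H3K4me1 and H3K27ac was done by the authors on 2 samples per mark and state, with 1 input per state. Per the labels, reads were trimmed with Trim Galore 0.6.3, aligned to mm9 with Bowtie2 2.3.5 and handled with SAMtools 1.10, and the study's methods give MACS2 broad peaks against input. The deposited unit is a peak position (chromosome, start, end), with no count, signal or score. Thresholds and pooling of replicates are not given in the sources used here, and both change the length of a list. Inputs were not analysed here.

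The 6 lists held no peak past a chromosome end and no peaks that overlapped within a list, on 20 chromosomes. Distances, widths, GC content and loci were computed with Python 3.11.15 and numpy 2.4.6 on NCBIM37 (mm9) and GENCODE M1, after the interval code was checked base by base on simulated data. Of the gene list entries, 339 matched by symbol, 24 by an older symbol or gene ID and 6 not at all. With 1 list per group no test between groups was possible, so shares carry 95% Wilson intervals, and medians order-statistic intervals, for counting error only. The regions, comparison classes, gene lists and motifs were chosen with earlier results of these data known. Coordinates are 1-based.

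Named regions were the 10 widest with no EPSC H3K4me1 and no H3K27ac within 10 kb, and the 5 longest runs, both leaving out 1 chromosome. Named genes were those at these regions, listed genes with at least 2 regions, the 10 loci with the most regions and the 10 with the most per 100 kb among loci with at least 4. Genes with 1 region were added to complete the lists, after their values were seen. Alternatives were filters on peak width, list length, the joining of regions, the overlap that counts as shared, distances to other peaks, chromosomes, start site windows, locus flanks, motif windows and the isolation distance. Those on base composition, region width, locus length, Fgfr2 and the GAGT context were chosen after seeing the data. Of the items these rules select, 1 region and 1 gene are not reported here.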

Additional observations from a re-analysis of the deposited data

How the results depend on the processing

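Each of the 7 summary values was recomputed under 9 alternatives, and some values under others. Of these 75 values, 30 stayed within the interval of the value reported (counts within 1.5 times). Keeping peaks of at least 500 bp gave 82.8% of ESC-only regions without H3K27ac, a median width of 802 bp, 1.67% at start sites, 46.4% GC, 12.0% with EPSC H3K4me1 within 1 kb and 31.3% of loci. Keeping the widest 50% of each list gave 7984 regions, 77.2%, 1563 bp, 4.55%, 46.3%, 7.30% and 22.9%. With lists of equal length per mark the values were 93.3%, 641 bp, and 15.0% with EPSC H3K4me1 within 1 kb. Joining regions over 1 kb gave 82.8%, 567 bp, 46.7% GC, 0% with EPSC H3K4me1 within 1 kb, by construction, and 26.6% of loci. Counting an ESC peak as shared only when EPSC peaks covered 50% of it gave 72.2%, 675 bp, 4.26%, 41.9% and 42.4%. Leaving out regions with EPSC H3K4me1 within 1 kb kept 12409, with 1.02% at start sites, 0% with EPSC H3K4me1 within 1 kb by construction, and 29.1% of loci. Leaving out those with H3K27ac within 1 kb kept 13607, with 13.6% that had EPSC H3K4me1 within 1 kb, and 31.8% of loci. The regions kept were 68.4% and 75.1% of all 18129 ESC-only regions, as these filters were not applied to that total. On chromosomes 1 to 19 alone 32.6% of loci held a region. The cause of these shifts was not tested, beyond what each filter removes.

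Start site windows of 500 and 2500 bp gave 0.849% and 3.58%. Without a flank 22.6% of loci held a region, and with 50 kb 57.7%, and of the listed genes outside the signatures the number with a region went from 45 to 27 and 79. In central windows of 200 bp the TCF and LEF letters were in 4.33% and the ESRRB and NR5A2 letters in 1.47%, and in windows of 42% to 50% GC the latter were in 2.69%. The named regions depended on the isolation distance, since 3 of the 10 remained with 5 kb and 2 with 20 kb.

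Applied to all 4 classes after seeing the data, the 3 filters on peaks left the share at start sites lower in the ESC-only classes than in the rest, at 1.08% to 4.55% without H3K27ac against 17.1% to 40.3% in both EPSCs. Under these filters 59.0% to 77.1% of ESC signature genes held a region, against 27.3% to 37.5% of EPSC signature genes and 22.9% to 33.9% of all loci. The order of the ESC-only classes at start sites turned under each, to 1.67% against 1.74% with H3K27ac for peaks of at least 500 bp, 4.55% against 6.87% for the widest 50% and 1.08% against 1.64% for lists of equal length. No paired analysis was possible because each list holds a whole group and carries no replicate number, and for the same reason no replicate could be left out. Depth is unknown.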
